A study of Mus musculus with 4 samples.

Results

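CD4 T cells of the mouse small-intestinal crypt were read here from their own transcripts, in 4 single-cell libraries of CD45+ cells (CD45 marks cells of the blood lineage). A cell barcode was kept with 300 or more genes and no more than 10% of its UMIs mitochondrial, a UMI (unique molecular identifier) being 1 captured RNA molecule. It entered the CD4 gate if it had at least 1 UMI of Cd4, at least 1 UMI of the CD3 genes Cd3e, Cd3d or Cd3g, and none of Cd8b1 (CD8 β chain), Trdc (γδ receptor), Cd79a (B cells), Siglech (plasmacytoid dendritic cells) or Lyz2 (myeloid cells). The gate held 388 of 68087 kept barcodes. By library, it took 75 and 117 cells in cystine replicates 1 and 2, against 123 and 73 cells in control replicates 1 and 2.

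The study fed mice a diet high in cysteine, in its oxidised form cystine, or a control diet, and sorted CD45+ cells from crypts by flow cytometry. About 18000 cells were loaded per library for 5′ sequencing. There were 2 cystine libraries and 2 control libraries, grouped by their titles, since the treatment field reads as control for each of the 4. Whether a library is 1 mouse or a pool is not stated, and strain, age and time on the diet are not given in the sources used here. Both groups are therefore known by diet only. P-values of the diet fit and of shares measure the spread between these libraries. Those of comparisons between cell types measure how the difference between cell types varied from library to library.

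CD4 T cells recognise peptides on MHC class II and divide into regulatory cells (Foxp3), interferon-producing type 1 cells, type 17 cells and follicular helper cells, which carry CXCR5 and PD-1 and help B cells. In the gut lining many resident T cells are of other kinds, CD8αβ cells and γδ cells, which hold granzymes and chemokines. CD4 cells that settle in the epithelium can lose helper genes and take up CD8α and cytotoxic genes. TCF-1 (Tcf7) and LEF-1 mark naive, central memory and follicular helper cells rather than resident effector cells.

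The gated CD4 cells held 141449, 205855, 248336 and 169053 summed UMIs in cystine 1, cystine 2, control 1 and control 2. Median UMIs per CD4 cell were 1488 and 1530 in cystine libraries and 1705 and 1725 in control libraries, with 842 and 867 genes against 933 and 927. Whole libraries held 27229695 to 31301936 UMIs, and each pair of libraries shared 335 to 454 barcode sequences. In the CD4 gate, cystine 1 stood apart from the other 3 libraries in resident genes: Itgae (integrin αE) was at 247 CPM (a gene’s UMIs over all UMIs of the gated cells of that library, on the usual counts-per-M scale) in cystine 1, against 455 to 700 CPM in the others, and Ccr9 (gut homing) at 42.4 CPM, against 254 to 362 CPM.

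The values that chose the cells are a description. Cd4 was found in 0.984% and 1.62% of cystine cells and 1.44% and 0.956% of control cells that had a CD3 UMI and neither Cd8b1 nor Trdc. In cells with Trdc, which should lack Cd4, the share was 0.270% and 0.378% in cystine libraries and 0.286% and 0.151% in control libraries. In cells with Cd8b1 it was 0.316% and 0.565% in cystine libraries, 1.19% in control 1, and 0 of 529 cells in control 2, which allows up to 0.567%. Cells with Siglech and no CD3 UMI, plasmacytoid dendritic cells that express Cd4 and that the gate leaves out, held it in 11.8% and 10.9% of cystine cells and 8.15% and 14.8% of control cells. Among the T cell populations Cd4 was thus a rare call, and in control 1 its share in the gated population lay close to that in Cd8b1 cells. These shares carry counting error only. The median cell with CD3 and without Cd8b1 or Trdc held 1257 UMIs in cystine 1, so depth was of the same order as in the gate.

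Cells just inside and just outside the threshold on Cd4 differed as follows, with no test. Among the 30641 cells that passed all other conditions with 0 Cd4 UMIs, Izumo1r (folate receptor 4, typical of regulatory and follicular helper cells) stood at 12.5 CPM, against 254 CPM in the 292 cells with 1 Cd4 UMI and 148 CPM in the 96 with 2 or more. Maf, a transcription factor of helper cells, stood at 7.48 CPM with 0 Cd4 UMIs, 182 CPM with 1 and 165 CPM with 2 or more. Granzyme A (Gzma) ran the other way, at 33442 CPM with 0 Cd4 UMIs, 13479 CPM with 1 and 13426 CPM with 2 or more. Cells with 1 Cd4 UMI were thus nearer to those with 2 or more than to those with none in each of these genes.

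The first question was how gated CD4 cells differ from CD8αβ T cells of the same libraries, 4351 cells with Cd8b1 and a CD3 UMI. UMIs were summed per library and gate, and gate genes were left out of the test. Helper genes such as Maf and Icos were higher in CD4 cells, and chemokine genes such as Ccl5 and Xcl1 were lower. Of 6749 genes tested with edgeR's quasi-likelihood test and library as a block, 253 (3.75%) passed an adjusted p of 0.05, with 153 (2.27%) higher and 100 (1.48%) lower in CD4 cells. Without control 1 the count was 153 genes, and without cystine 2 it was 161.

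Of 16 genes on a list of helper identity, 13 were tested and 8 were higher in CD4 cells, with none lower. Maf stood at 233 and 194 CPM (cystine) and 161 and 130 CPM (control) in CD4 cells, against 2.62 and 4.74 CPM (cystine) and 8.50 and 4.55 CPM (control) in CD8αβ cells. Its log2 fold change was 5.18 (SE 0.30, edgeR adjusted p = 1.26e-11), and no CD4 library overlapped a CD8αβ library. Icos, a costimulatory receptor, stood at 212 and 170 CPM (cystine) and 149 and 94.6 CPM (control) in CD4 cells, against 16.4 to 25.5 CPM in CD8αβ libraries (log2 fold change 2.84, SE 0.23). Izumo1r stood at 509 and 301 CPM (cystine) and 105 and 59.2 CPM (control) in CD4 cells, against 6.57 to 17.8 CPM in CD8αβ libraries (4.39, SE 0.36). Each of these stood higher in all 4 CD4 libraries than in any CD8αβ library.

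Cd40lg, the CD40 ligand through which helper cells signal to B cells, stood at 63.6 and 141 CPM (cystine) and 101 and 88.7 CPM (control) in CD4 cells, and averaged 98.5 ± 32.2 CPM, against 9.37 ± 7.58 CPM in CD8αβ cells (SD, n = 4 libraries each; log2 fold change 3.53, SE 0.38). Cd5, a damping receptor of conventional T cells, averaged 455 ± 155 CPM in CD4 cells and 139 ± 47.4 CPM in CD8αβ cells (1.66, SE 0.13). Cd28, Ctla4 and Tbc1d4 made up the rest of the 8, with log2 fold changes of 2.0, 2.52 and 2.02. Tbc1d4 did not pass without cystine 1 (1.33, edgeR adjusted p = 0.0922) or without cystine 2 (1.77, adjusted p = 0.106).

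**Figure D1:**
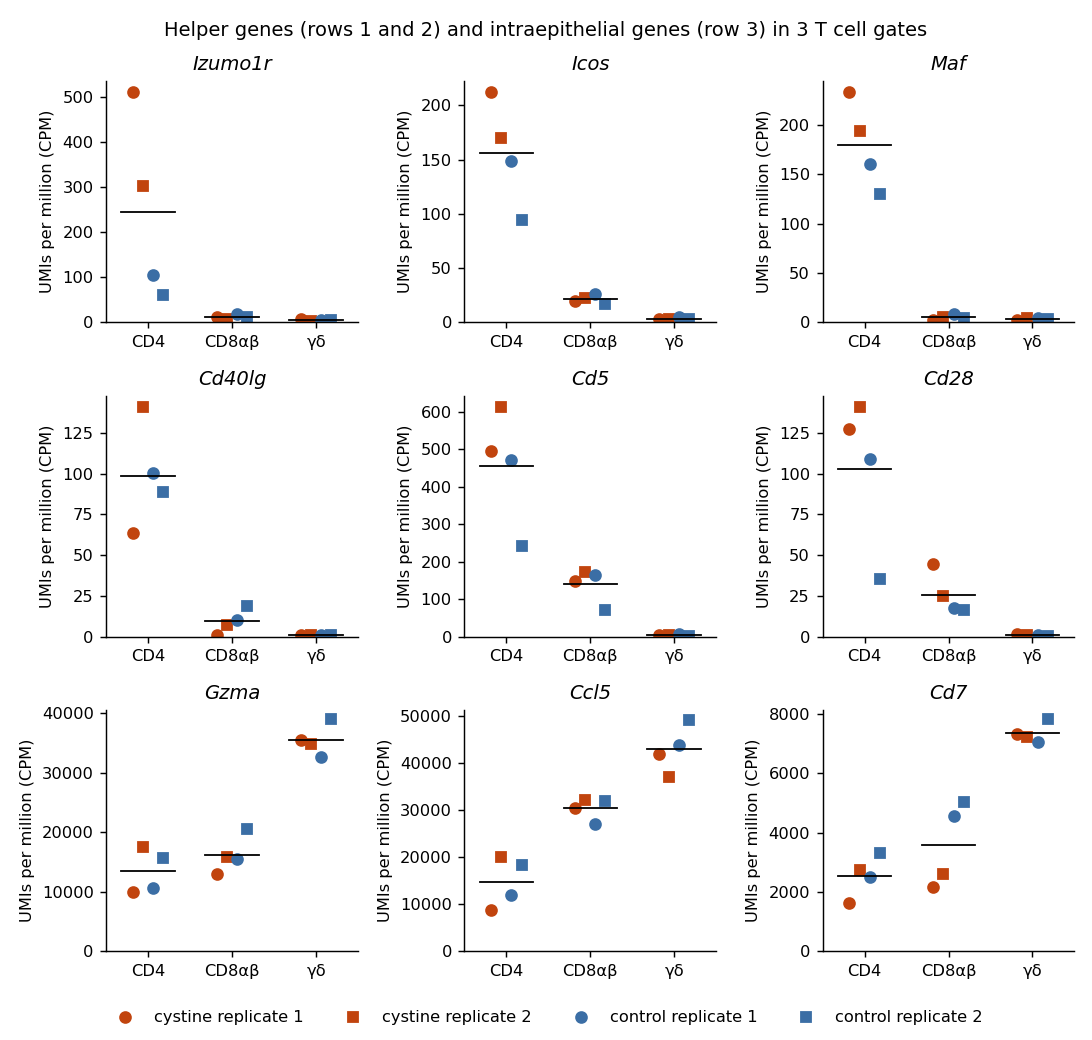
Level of 9 genes in CPM (linear axis from 0) in summed CD4, CD8αβ and γδ T cells of the 4 libraries. Each point is 1 library, coloured by diet and shaped by replicate number, and the line is the mean of the 4 libraries. Helper genes such as Maf (179.7 CPM on average in CD4 cells) stand far above both other gates, while Gzma and Ccl5 stand lowest in CD4 cells on average.

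Genes of helper subsets were also higher in CD4 cells than in CD8αβ cells. Of 8 follicular helper genes tested, 6 were higher and none lower, among them Pdcd1, which encodes PD-1, at 113 ± 77.3 CPM against 31.0 ± 8.83 CPM (log2 fold change 1.73, SE 0.26), and Tox2, at 47.8 ± 20.5 CPM against 2.26 ± 1.50 CPM (4.35, SE 0.46). Of 5 type 17 genes tested, 4 were higher: the chemokine receptor Ccr6 (4.73, SE 0.42), Tmem176b (3.40, SE 0.30), Rora (0.83) and Batf (0.79). Of 6 regulatory T cell genes, 2 were higher, Ctla4 and Capg. Foxp3 itself had 4 and 1 UMIs in cystine libraries and 9 and 0 UMIs in control libraries, too few for the test.

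Tnfrsf25 (death receptor 3) averaged 65.2 ± 26.4 CPM in CD4 cells and 1.44 ± 1.92 CPM in CD8αβ cells (SD, n = 4 libraries each), and its log2 fold change of 5.41 (SE 0.48) was above that of the other named genes. Il18r1, an IL-18 receptor chain, averaged 66.9 ± 11.6 CPM against 2.5 ± 2.09 CPM (4.90, SE 0.49). Gpr183, the oxysterol receptor that guides cells to B cell follicles, averaged 92.6 ± 45.0 CPM against 4.81 ± 3.03 CPM (4.32, SE 0.37). Of 9 cell cycle genes tested, 6 were higher and none lower in CD4 cells, among them Mki67 at 61.9 ± 14.7 CPM against 11.6 ± 4.63 CPM and Top2a at 129 ± 41.6 CPM against 23.7 ± 7.63 CPM. Cells with high doublet scores made up 10 and 16 of the CD4 cells in cystine libraries and 17 and 9 in control libraries. The cut takes a set number of barcodes per library by rank. It took 2982 of 19306 and 2199 of 16578 kept barcodes in cystine libraries, and 2266 of 16829 and 1891 of 15374 in control libraries. Both cycle genes passed in all 15 alternatives, which include removing cells with high doublet scores and thinning every cell to 1000 UMIs. The part of doublets in these levels was not tested.

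Of 16 type 1 and cytotoxic genes tested, 9 were lower in CD4 cells and 2 were higher. Ccl5, a chemokine of resident T cells, stood at 8858 and 20029 CPM (cystine) and 12016 and 18337 CPM (control) in CD4 cells, and averaged 14810 ± 5257 CPM against 30462 ± 2410 CPM in CD8αβ cells (log2 fold change -1.16, SE 0.11). Xcl1, a chemokine that attracts dendritic cells, averaged 75.8 ± 18.6 CPM against 379 ± 69.9 CPM (-2.39, SE 0.18), and Gzmk, another granzyme, had a log2 fold change of -2.01 (SE 0.21). Gzma was high in both, at 13433 ± 3732 CPM in CD4 cells and 16197 ± 3148 CPM in CD8αβ cells (-0.35, edgeR adjusted p = 0.0269), and did not pass without control 1 (-0.26, adjusted p = 0.439) or without control 2 (-0.31, adjusted p = 0.0692). A Gzma UMI was found in 73.97% to 88.6% of CD4 cells and also in 29.6% to 71.2% of B cells, which should lack it. The 2 higher genes were Il18r1 and Ifng, which encodes interferon γ, at 7.07 and 72.9 CPM (cystine) and 36.2 and 148 CPM (control) in CD4 cells. The log2 fold change of Ifng was 2.38 (SE 0.45), and 1.51 without control 2. Of 13 genes of the programme that CD4 cells take up in the epithelium, 6 were lower, with Cd8a at 645 ± 201 CPM against 2069 ± 190 CPM, and none was higher.

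The second comparison set CD4 cells against 20704 γδ T cells, those with Trdc and a CD3 UMI. Of 10219 genes, 1258 (12.3%) passed, with 669 (6.55%) higher and 589 (5.76%) lower in CD4 cells, and 803 passed without control 1. The median log2 fold change over all genes was -0.08. Helper identity genes were higher for 14 of 16 tested and lower for none. Cd5 averaged 455 ± 155 CPM in CD4 cells and 4.44 ± 2.41 CPM in γδ cells (SD, n = 4 libraries each; log2 fold change 6.70, SE 0.19), the largest difference among the helper identity genes named here. Cd28 (6.47, SE 0.45), Cd40lg (6.42, SE 0.44), Maf (5.69, SE 0.30), Icos (5.49, SE 0.32) and Izumo1r (5.47, SE 0.28) followed.

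Type 17 genes were higher in CD4 cells than in γδ cells for 8 of 9 tested, among them the chemokine receptor Ccr6, at 74.4 ± 57.0 CPM against 1.36 ± 1.55 CPM (log2 fold change 5.90, SE 0.51). Naive and circulating genes were higher for 10 of 13, with Tcf7 at 226 ± 132 CPM against 45.9 ± 8.56 CPM (2.18, SE 0.17), Lef1 at 81.7 ± 48.5 CPM against 10.2 ± 1.94 CPM (2.87, SE 0.32) and the IL-7 receptor gene Il7r at 219 ± 35.3 CPM against 31.9 ± 15.4 CPM (2.80, SE 0.19). None of these lists held a lower member. Il7r did not separate CD4 from CD8αβ cells, where it averaged 221 ± 25.2 CPM (log2 fold change -0.05, SE 0.15). Against CD8αβ cells, 1 of 9 naive and circulating genes tested was higher in CD4 cells, as were 2.27% of all genes tested. Tcf7 had a log2 fold change of 1.10 there, and did not pass without cystine 1 (0.62) or without cystine 2 (0.77). Of 17 type 1 and cytotoxic genes tested against γδ cells, 11 were lower and 4 higher in CD4 cells, the higher ones including Ifng (2.88, SE 0.35) and Il18r1 (6.63, SE 0.53). Among the lower named genes were Gzma (-1.48, SE 0.10), Ccl5 (-1.65, SE 0.10), the signalling chain Fcer1g (-1.97, SE 0.10) and Tcrg-V7 (-3.03, SE 0.14).

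The γδ and natural T cell markers were low in CD4 cells but not at 0. Their summed level was 3443 and 6082 CPM (cystine) and 4381 and 5791 CPM (control) in CD4 cells, against 12868 to 14542 CPM in γδ cells. A UMI of a constant gene of the γ receptor chain was found in 25.3% and 32.5% of CD4 cells in cystine libraries and in 48.8% and 63.0% in control libraries. In CD8αβ cells this share was 31.9% and 45.0% in cystine libraries and 61.9% and 73.7% in control libraries, and in γδ cells it ran between 81.7% and 87.7%. B cells, which should lack it, showed 2.12% to 7.19%. The share in CD4 cells lay below that in CD8αβ cells of the same library in all 4 libraries, and its part in any diet difference given here was not tested.

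The gate was not uniform. When cells were sorted by how many of 5 helper genes (Icos, Izumo1r, Maf, Foxp3, Cd40lg) they held a UMI of, 202 of 388 (52.1%) had none, 95 (24.5%) had 1 and 91 (23.5%) had 2 or more. Gzma stood at 20322 CPM in cells with none, 9411 CPM with 1 and 6199 CPM with 2 or more. Cd8a stood at 1037, 342 and 288 CPM in the same order, and Cd5 at 313, 470 and 705 CPM. Tcf7 stood at 81.1, 242 and 408 CPM, and Cxcr5, the receptor that brings cells into follicles, at 5.79, 19.0 and 101 CPM.

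Cells with more helper genes were also deeper, with median UMIs of 1382, 1844 and 1980, and a γ constant UMI was found in 52.0%, 34.7% and 27.5% of them. Over all cells, Gzma and Cd8a levels thus ran down, and Cd5 and Tcf7 up, across classes that also differed in depth, and the part of depth was not tested. Within libraries the order of the last 2 classes varied. With 2 or more helper genes Gzma stood at 9719 CPM in cystine 2 and 8810 CPM in control 1, against 7946 and 5627 CPM with 1. Cd8a was likewise higher with 2 or more than with 1 in those libraries, and Tcf7 lower in cystine 1 and control 1. By library, cells with none of the 5 genes made up 41.3% and 48.7% in cystine libraries, against 56.9% and 60.3% in control libraries. Cells with 2 or more made up 36.0% and 23.9% in cystine libraries, against 22.8% and 11% in control libraries. Each cystine library thus lay on the same side of both control libraries for both shares, which had no test. For the class with 2 or more, cystine 2 lay close to control 1. Summed levels in the CD4 gate did not overlap between diets for 1114 of 3187 genes (35%). Izumo1r, 1 of the 5 genes that set the classes, was among the genes without overlap.

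**Figure D2:**
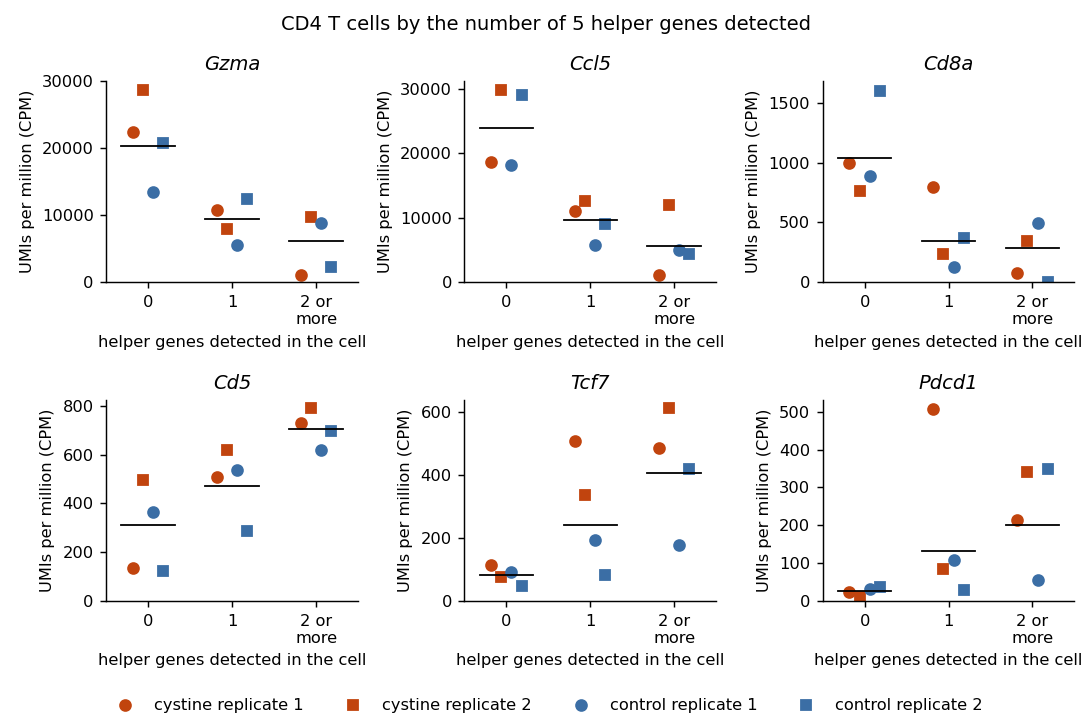
Level of 6 genes in CPM (linear axis from 0) in gated CD4 cells with 0, 1, or 2 or more of 5 helper genes detected, the classes being set by the same cells' UMIs. Points are single libraries, coloured by diet and shaped by replicate number, and the line is the value over all cells of the class. Over all cells, Gzma and Ccl5 are highest with none, and Cd5 and Tcf7 with 2 or more, while single libraries vary between the last 2 classes.

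Helper genes were then read together within single cells. Of 23 cells with Cxcr5, 14 (60.9%) held Izumo1r, against 57 of 365 (15.6%) without Cxcr5, and 11 (47.8%) held Pdcd1, against 11% of those without. Maf was found in 65.2% of Cxcr5 cells against 20.5%, and Tcf7 in 56.5% against 22.2%. These shares pool the libraries and have no test. Of the Cxcr5 cells, 14 and 8 came from cystine libraries and 1 and 0 from control libraries, so the shares also carry the difference between libraries in Izumo1r and the rest. The Cxcr5 cells were also deeper, with a median of 2080 UMIs against 1601. Of 9 Foxp3 cells, 5 (55.6%) held Ctla4, the inhibitory receptor of regulatory cells, against 10.6% of the rest. Of 134 CD4 cells with Cd8a, 73.1% held Itgae, against 29.9% of those without. Foxp3 cells (median 2104 UMIs against 1614) and Cd8a cells (1967 against 1481) were deeper as well.

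The share of CD4 T cells did not separate the diets. It was 0.388% and 0.706% of kept barcodes in cystine libraries and 0.731% and 0.475% in control libraries, or 0.547% ± 0.224 against 0.603% ± 0.181 (SD, n = 2 each; difference -0.0557 points, two-sided exact permutation p = 0.667). The groups overlapped, and with 2 libraries per group the smallest p this test can give is 0.333. The direction was the opposite without cystine 1 (difference 0.103 points), without control 1 (0.0723), with barcodes holding Cd79a left out of the total (0.0168), with Cd8a cells left out of the gate (0.0218) and with γ constant cells left out (0.108).

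Shares of states within CD4 cells were read as the share with a UMI of 1 gene or group. Of 13 such shares, 7 did not overlap between diets, 6 of them given here, each with the smallest p the exact test allows, 0.333. Summed levels in the CD4 gate did not overlap between diets for 1114 of 3187 genes (35%). Fewer of the 13 shares stayed apart once cells with a γ constant UMI were left out. Izumo1r was found in 28 of 75 (37.3%) and 22 of 117 (18.8%) CD4 cells in cystine libraries, against 17 of 123 (13.8%) and 4 of 73 (5.48%) in control libraries. That is 28.1% ± 13.1 against 9.65% ± 5.90 (SD, n = 2 each), while B cells showed 0 to 0.337%. Thinned to 1000 UMIs per cell, the shares were 25.0% ± 11.8 against 4.95% ± 4.89. With γ constant cells left out, the Izumo1r groups overlapped, at 29.1% ± 14.4 against 13.2% ± 8.23.

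Cxcr5 or Bcl6, the receptor and the master regulator of follicular helper cells, was found in 18.7% and 10.3% of CD4 cells in cystine libraries and 4.07% and 2.74% in control libraries. B cells of the same libraries held either gene in 12.4% to 18.7% of cells, so this pair does not tell T cells from B cell RNA. Maf was found in 25.9% ± 0.822 of cystine CD4 cells against 19.9% ± 2.93 of control CD4 cells (SD, n = 2 each), but in 6.91 points fewer cystine cells once cells with a γ constant UMI were left out. Another 3 did not overlap and were lower in cystine libraries: Cd8a at 31.1% ± 8.87 against 39.9% ± 3.58, Tbx21 or Ifng at 11.3% ± 4.62 against 19.6% ± 7.09, and Gata3 at 5.66% ± 0.459 against 8.99% ± 1.09. The Cd8a difference turned to 2.02 points higher under a stricter cell filter and to 5.99 points higher without γ constant cells. Tbx21 or Ifng and Gata3 stayed lower on average in these alternatives, but their groups overlapped in each. Median UMIs per CD4 cell were also lower in cystine libraries (1488 and 1530 against 1705 and 1725). Thinned as for Izumo1r, the Cd8a groups overlapped (33.3% and 17.8% against 28.0% and 38.8%). Tbx21 or Ifng and Gata3 still did not overlap once thinned.

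Shares with Foxp3 and with Itgae overlapped between the diets. Foxp3 was found in 3 of 75 and 1 of 117 CD4 cells in cystine libraries, and in 5 of 123 and 0 of 73 in control libraries, the last allowing up to 4.11%. Il17a, the cytokine of type 17 cells, had 0 and 16 UMIs in cystine libraries and 24 and 21 UMIs in control libraries, with 20 of the 21 in a single cell of control 2. Il22, the cytokine of barrier repair that the series title ties to CD8+ T cells, had 3 and 1 UMIs in cystine CD4 cells and 5 and 1 UMIs in control CD4 cells. Itgae was found in 37.5% ± 17.1 against 50.3% ± 4.43.

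**Figure D3:**
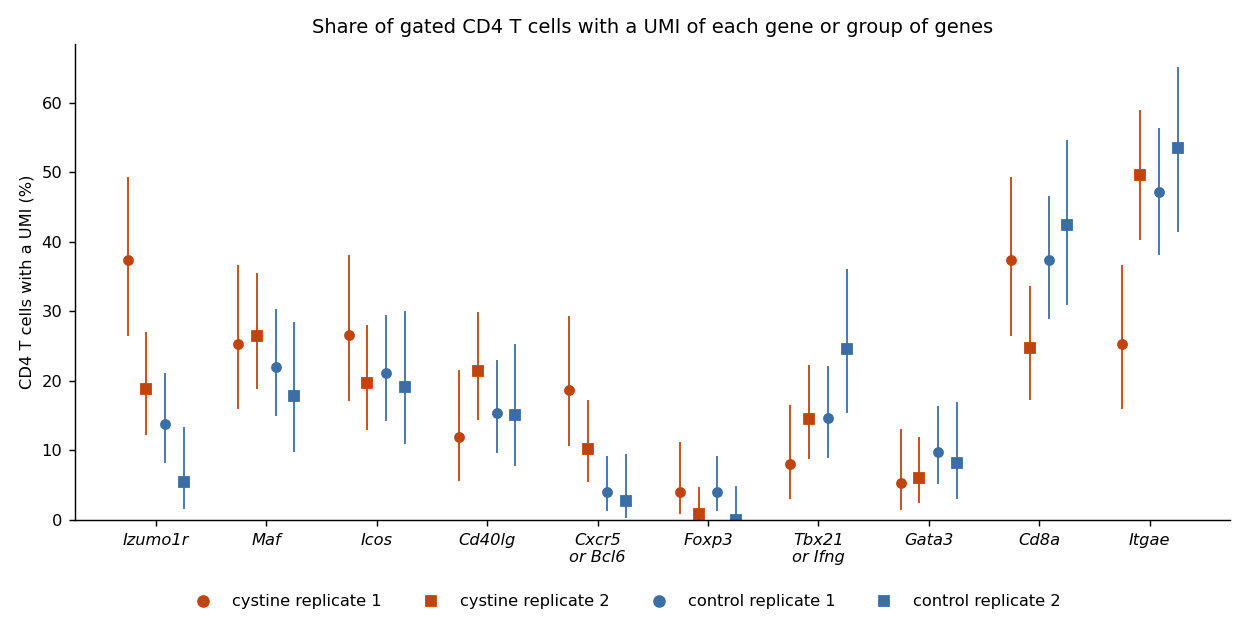
Share of gated CD4 cells with at least 1 UMI of each gene or group of genes (percent, axis from 0). Points are single libraries, coloured by diet and shaped by replicate number, and bars are exact 95% binomial intervals, which cover counting error only. Izumo1r and the Cxcr5 or Bcl6 pair lie higher in both cystine libraries than in both control libraries, with wide intervals.

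The diet effect on genes was then fitted in CD4 cells alone. Of 3187 genes, none (0%) passed edgeR's quasi-likelihood test at an adjusted p of 0.05, 162 (5.08%) had an unadjusted p below 0.05, and DESeq2 called 3, all higher in cystine libraries. The groups did not overlap for 1114 genes (35%), 590 (18.5%) with both cystine libraries above and 524 (16.4%) with both below. Izumo1r (ENSMUSG00000031933), at 509 and 301 CPM in cystine libraries against 105 and 59.2 CPM in control libraries, had a log2 fold change of 2.22 (SE 0.35, edgeR adjusted p = 0.167). It ranged from 1.78 to 3.14 over 16 alternatives and passed in 7 of them. Leaving out a library leaves 1 library in one arm, which is assumed to vary like the other arm, so the spread then rests on 1 pair of libraries and such passes are no support beyond the 4-library fit. In such fits Izumo1r passed without control 1 (2.73, adjusted p = 2.07e-05), without control 2 (1.90, adjusted p = 0.00355) and without cystine 1 (1.78, adjusted p = 0.000294), and did not pass without cystine 2. DESeq2 gave it 2.26 with an adjusted p of 0.00863. The other genes that DESeq2 called were 1 B cell marker, Cd74 (2.62, DESeq2 adjusted p = 0.00454), and 1 epithelial marker.

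Tcf7, which encodes TCF-1, stood at 375 and 296 CPM in cystine CD4 cells, against 137 and 94.6 CPM in control CD4 cells (log2 fold change 1.48, SE 0.28, edgeR adjusted p = 0.290). With 1 library left in an arm, it passed without control 1 (1.80, adjusted p = 0.0242) and without cystine 1 (1.28, adjusted p = 0.0244), and did not pass without control 2 or without cystine 2. Over all 16 alternatives it passed in 5. All 5 tested naive and circulating genes, of 16 on the list, lay above 0 (median log2 fold change 1.15), and for 4 (Foxp1, Lef1, Nsg2, Tcf7) both cystine libraries stood above both control libraries. Lef1 was at 148 and 82.6 CPM in cystine libraries, against 60.4 and 35.5 CPM in control libraries. Over all 3187 genes the median was 0.00, 49.9% lay above 0, and for 18.5% both cystine libraries stood above both control libraries.

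Of 13 follicular helper genes, 6 were tested, and all 6 lay above 0 (median log2 fold change 1.11). For 5 the cystine libraries stood above both control libraries, as they did for 18.5% of all genes tested. Pdcd1 was at 219 and 121 CPM in cystine libraries, against 52.3 and 59.2 CPM in control libraries (1.57, SE 0.40, edgeR adjusted p = 0.770). Sh2d1a, the adaptor SAP that follicular helper cells need, was at 318 and 267 CPM in cystine libraries, against 173 and 148 CPM in control libraries. Cxcr5 had 16 and 10 UMIs in cystine CD4 cells (113 and 48.6 CPM) and 1 and 0 UMIs in control CD4 cells, which was too low for the fit. In γδ cells, which should lack it, Cxcr5 stood at 3.17 and 0.437 CPM in cystine libraries and 0.391 and 0.161 CPM in control libraries.

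Helper identity genes had a median of 0.56, with 12 of 14 above 0. Both cystine libraries stood above both control libraries for 6 of them (Cd28, Cd5, Icos, Izumo1r, Maf, Tbc1d4) and below for Trat1. Of all genes tested, 18.5% stood above and 16.4% below. Type 17 genes had a median of -0.78 with 1 of 6 above 0. Tmem176b, a membrane channel protein of type 17 cells, was at 28.3 and 131 CPM in cystine libraries, against 298 and 189 CPM in control libraries (-1.51, edgeR adjusted p = 0.798). With control 1 as the lone control library, Tmem176b passed (-1.81, adjusted p = 0.00639), as did Tmem176a (-2.63, adjusted p = 1.98e-05, against -2.22 and an adjusted p of 0.787 with all 4 libraries). Neither passed when any other library was left out. Cell cycle genes had a median of -0.47 with 0 of 7 above 0, and the regulatory, type 1 and cytotoxic, and residency lists had medians of -0.08, -0.07 and -0.02.

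Leaving out each library in turn, the list medians ran from 1.05 to 1.56 for naive and circulating genes, from 0.77 to 1.41 for follicular helper genes, from 0.25 to 0.94 for helper identity genes and from -2.78 to -0.59 for type 17 genes. The signs of these 4 held in every such fit, while the residency median turned to 0.04 without control 2 and 0.08 without cystine 1.

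**Figure D4:**
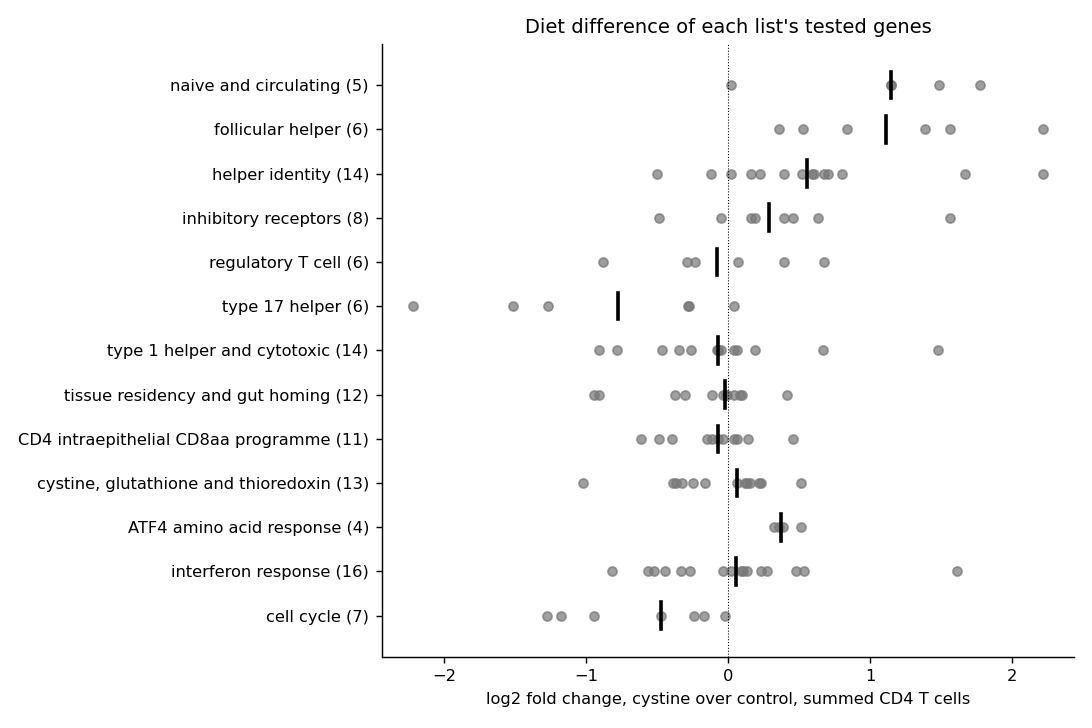
Log2 fold change of cystine over control in summed CD4 cells (x axis) for the tested members of 13 gene lists (y axis, number tested in brackets). Grey points are genes and black bars are list medians, and no gene here passed the adjusted threshold. Naive and circulating (median 1.15) and follicular helper genes (1.11) lie to the right of 0, and type 17 genes (-0.78) to the left.

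Markers of other cells moved with the diets in the same sums. The B cell markers summed to 1103 and 500 CPM in cystine CD4 cells, against 254 and 195 CPM in control CD4 cells, with the light chain gene Iglc2 at 0 UMIs in all 4 sums. Cd74, an MHC class II chaperone that B cells held at 38166 CPM or more, was at 530 and 248 CPM in cystine CD4 cells, against 80.5 and 41.4 CPM in control CD4 cells (log2 fold change 2.56, SE 0.44, edgeR adjusted p = 0.185). With 1 library left in an arm, it passed without control 1 (3.17), without control 2 (2.21) and without cystine 1 (1.91), and did not pass without cystine 2. DESeq2 gave Cd74 2.62 with an adjusted p of 0.00454. The same gene was at 504 and 138 CPM in cystine γδ cells and 114 and 86.6 CPM in control γδ cells. B cells numbered 2121 and 850 in cystine libraries, against 306 and 297 in control libraries.

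Epithelial markers summed to 587 and 612 CPM in cystine CD4 cells, against 165 and 82.8 CPM in control CD4 cells. Among them, the Paneth cell peptide gene Defa24 had 240 and 126 CPM in cystine libraries and none in control libraries (edgeR adjusted p = 0.0703). With cells holding a UMI of any of 7 further B cell genes left out, 18 of 75 and 78 of 117 CD4 cells remained in cystine libraries, and 82 of 123 and 61 of 73 in control libraries. Izumo1r was then found in 55.6% (10 of 18) and 11.5% of cystine CD4 cells, against 9.76% and 3.28% of control CD4 cells, so cystine 2 lay close to control 1. Cxcr5 or Bcl6 was found in 22.2% (4 of 18) and 8.97% of cystine CD4 cells, against 1.22% and 3.28% of control CD4 cells. The part of B cell and epithelial RNA in the gene differences was not tested further.

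Genes that handle cystine, glutathione and thioredoxin were read because the diet supplies cystine. Of 13 tested in CD4 cells, 7 lay above 0 (median log2 fold change 0.06), and none passed. Without control 2, cystine 1 or cystine 2 the median was -0.36, -0.17 and -0.25, so the list has no stable sign. Both cystine libraries stood above both control libraries for Gpx4 and Slc3a2, and below for Txn1 and the peroxiredoxin genes Prdx2, Prdx5 and Prdx6. Over all 3187 genes tested, 18.5% stood above and 16.4% below in the same way. Slc3a2, the heavy chain of the cystine/glutamate exchanger and of other amino acid transporters, was at 113 and 82.6 CPM in cystine libraries, against 72.5 and 59.2 CPM in control libraries (0.52, SE 0.37). Slc7a11, the exchanger's light chain, had no UMI in any CD4 sum. Txn1 (thioredoxin) was at 148 and 160 CPM in cystine libraries, against 294 and 337 CPM in control libraries (-1.02, SE 0.25, edgeR adjusted p = 0.770), with no overlap. Against CD8αβ cells, CD4 cells of all libraries held more of 2 redox genes of 15 tested, Gpx1 (glutathione peroxidase, log2 fold change 0.80, SE 0.16) and Glrx (glutaredoxin, 0.93, SE 0.17). The median of the 15 was 0.11, with 9 above 0. Over all 6749 genes of that comparison, 2.27% were called higher in CD4 cells and 49.9% lay above 0.

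Last, the diet effect in CD4 cells was tested against that in CD8αβ cells of the same libraries, as the difference between their log2 fold changes. The CD8αβ gate itself differed by diet, with 1575 and 1585 cells in cystine libraries against 662 and 529 in control libraries. Cd7 was found in 62.1% and 70.2% of the cystine CD8αβ cells, against 92.9% and 91.7% of the control ones. The part of this in the interaction was not tested. Of 7669 genes, 7 passed (0.0913%), 5 (0.0652%) where the effect was higher in CD4 cells and 2 (0.0261%) where it was lower, and 377 had an unadjusted p below 0.05. Tcf7 was at 375 and 296 CPM in cystine CD4 cells against 137 and 94.6 CPM in control CD4 cells, and in CD8αβ cells at 65.9 and 78.1 CPM in cystine libraries against 132 and 133 CPM in control libraries. Its difference between cell types was 2.39 (SE 0.33, edgeR adjusted p = 0.000278). The 2 cell types thus lay in opposite directions by diet in every library for Tcf7, an order that passing this test favours. Izumo1r, at 11.3 and 6.57 CPM in cystine CD8αβ cells and 17.8 and 11.8 CPM in control CD8αβ cells, had a difference of 3.05 (SE 0.46, adjusted p = 0.00126). Both passed in 13 of 14 alternatives, and did not pass with at least 2 Cd4 UMIs. The alternatives include the fits with a library left out, whose passes are no support beyond the 4-library fit.

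The other 3 genes with a higher effect in CD4 cells were Tbc1d4 (2.74, SE 0.52, edgeR adjusted p = 0.0263), Rgs10, a regulator of G protein signalling (1.79, SE 0.34, adjusted p = 0.0280), and Nsg2, an endosomal protein (3.46, SE 0.68, adjusted p = 0.0285). Nsg2 was at 99.0 and 58.3 CPM in cystine CD4 cells against 16.1 and 29.6 CPM in control CD4 cells, and in CD8αβ cells at 7.85 and 10.9 CPM in cystine libraries against 29.7 and 30.0 CPM in control libraries. Each of these 3 depended on single libraries: Nsg2 did not pass without control 1 (3.05, adjusted p = 0.17) or cystine 1 (2.88, adjusted p = 0.0662), Tbc1d4 without control 2 (2.53, adjusted p = 0.0876) and Rgs10 without control 2 (1.32, adjusted p = 0.149). The whole count was 18 without control 1, 12 without control 2, 30 without cystine 1 and 26 without cystine 2.

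The 2 genes with a lower effect in CD4 cells were Ly6a (Sca-1, an interferon-induced surface protein) and Cxcr6, a chemokine receptor of resident cells. Ly6a was at 474 and 389 CPM in cystine CD4 cells against 358 and 349 CPM in control CD4 cells, and in CD8αβ cells at 342 and 300 CPM in cystine libraries against 34.0 and 63.7 CPM in control libraries. Its difference was -2.45 (SE 0.30, edgeR adjusted p = 4.94e-05) and passed in all 14 alternatives, again counting the fits with a library left out. Cystine and control CD4 cells thus both held Ly6a at levels that only cystine libraries neared among CD8αβ cells. A Ly6a UMI was also found in 51.5% and 53.5% of B cells in cystine libraries, and in 30.4% and 49.5% in control libraries. The part of B cell RNA in the Ly6a levels was not tested. Cxcr6 was at 63.6 and 262 CPM in cystine CD4 cells against 354 and 296 CPM in control CD4 cells, and in CD8αβ cells at 529 and 362 CPM in cystine libraries against 176 and 218 CPM in control libraries. The Cxcr6 difference of -2.03 (SE 0.40, edgeR adjusted p = 0.0285) was -1.19 without cystine 1, the library low in resident genes, and -3.78 without cystine 2.

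**Figure D5:**
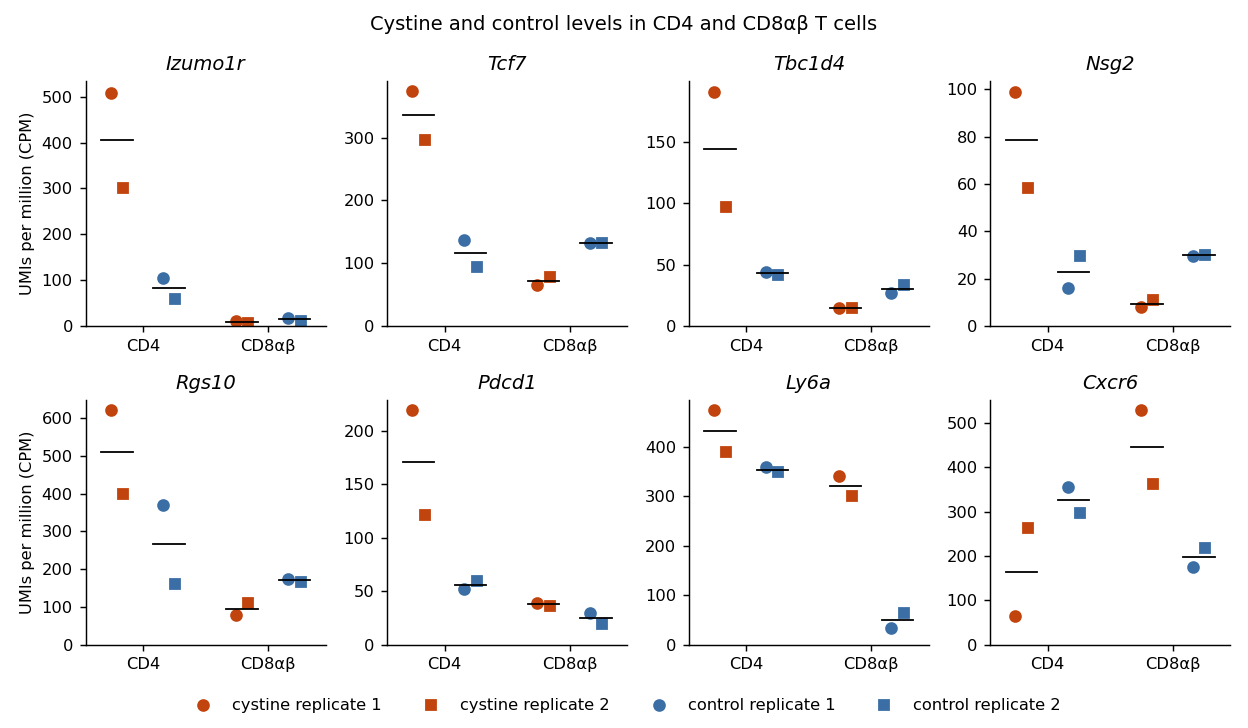
Level of 8 genes in CPM (linear axes from 0) in summed CD4 and CD8αβ T cells, with cystine libraries left of control libraries in each gate. Points are single libraries, shaped by replicate number, and lines are group means. Tcf7 and Nsg2 stand higher with cystine in CD4 cells and lower in CD8αβ cells, and Ly6a differs by diet mainly in CD8αβ cells.

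T cell receptor β variable genes were spread over many members in the CD4 gate. Between 19 and 21 of 35 Trbv genes were detected per library. The most abundant one took 15.4% (Trbv1) and 14.5% (Trbv16) of Trbv UMIs in cystine libraries, against 21.1% (Trbv15) and 24.9% (Trbv13-1) in control libraries. No Trbv gene led in more than 1 library.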

How the data were processed

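UMI counts per gene and barcode were deposited by the authors as 1 matrix per library, with 32285 genes and 68260 barcodes in all. Cell Ranger 3.1.0, Seurat 4.0.1 and GRCm39 are named per the submitters' processing notes, without their roles, and the matrix headers name software 7.0.1, per the file headers. No receptor sequencing or surface protein data were used. Barcodes of 300 or more genes, and of no more than 10% mitochondrial UMIs, were gated by transcripts and summed per library (Python 3.11.15, scanpy 1.11.5, scipy 1.17.1). Sums were tested with edgeR 4.0.16 (filterByExpr, TMM, quasi-likelihood) in R 4.3.3, with Benjamini-Hochberg adjustment over all genes tested, and checked on simulated data. Comparisons of cell types, and of diet effects between them, had library as a block; the diet fit had none. Shares were compared with two-sided exact permutation tests and given exact Clopper-Pearson intervals.

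CD4 sums held 141449 to 248336 UMIs, so a gene at 20 CPM rests on few molecules. Doublets were scored with Scrublet at 0.8% per 1000 barcodes and removed only in an alternative. The gated cells, gene lists and tests were chosen with earlier results of these data known. Some genes and shares read are not reported here. Named genes were those past the threshold with no overlap, at least 20 CPM in the higher group and among the 12 largest changes each way (4 in the interaction), up to 4 called members per list, and a set of fixed genes; among other genes given values, Cd74, Defa24, Txn1, Tmem176a, Tmem176b, Rgs10, Tbc1d4 and Nsg2 in the diet fit were chosen after their values were seen. Alternatives were DESeq2 1.42.0 and its size factors, no filter on low counts, receptor genes left out, other cell filters and gates, thinning to 1000 UMIs, a replicate block and leaving out each library. Gates without γ constant UMIs or without further B cell UMIs were added after seeing the data.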

Additional observations from a re-analysis of the deposited data

Results flagged for a closer look

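The 7 genes whose diet effect differed between CD4 and CD8αβ T cells, by edgeR's interaction test with Benjamini-Hochberg adjustment over 7669 genes, merit a closer look. The difference in log2 fold change, CD4 minus CD8αβ, was 2.39 for Tcf7, 3.05 for Izumo1r, 2.74 for Tbc1d4, 1.79 for Rgs10, 3.46 for Nsg2, -2.45 for Ly6a and -2.03 for Cxcr6. Over the 14 alternatives run for each, Ly6a passed in 14, Tcf7 and Izumo1r in 13, Cxcr6 in 9, Tbc1d4 in 7, and Nsg2 and Rgs10 in 5. The alternatives include the fits with a library left out, whose passes are no support beyond the 4-library fit. Tcf7 and Izumo1r did not pass with at least 2 Cd4 UMIs (edgeR adjusted p = 0.281 for each). For Tcf7, Izumo1r, Tbc1d4, Nsg2 and Rgs10, both cystine CD4 libraries stood above both control CD4 libraries, and both cystine CD8αβ libraries stood below both control CD8αβ libraries. These genes passed the interaction test on the same sums, which favours such an order, so it is no further support. Of 3187 genes in the diet fit, 18.5% stood above in the CD4 libraries in the same way. For Izumo1r the CD8αβ groups lay close together.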

How the results depend on the processing

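The diet fit, with 0 genes called, gave 3 with DESeq2, 29 with no low count filter, 1 with receptor genes left out, 1 without γ constant cells and 1 to 27 with a library left out. Same-numbered libraries showed no pairing (r = 0.0008 over 3187 genes and 2 pairs), but so few libraries cannot exclude it. With replicate as a block 8 genes passed, 5 higher and 3 lower, and 15 passed with the block and thinning. Other alternatives stayed at 0. Against CD8αβ cells, 253 became 122 with DESeq2, 466 with no filter, 97 with at least 2 Cd4 UMIs, 125 without further B cell UMIs, 96 thinned, and 153 to 261 with a library left out. Against γδ cells, 1258 became 803 with DESeq2, 541 with at least 2 Cd4 UMIs, 638 without B cell UMIs, 559 thinned, and 803 to 1081 with a library left out. The interaction's 7 became 4 with DESeq2 size factors, 3 with DESeq2, 18 with no filter, 11 with receptor genes left out, 3 with doublets removed, 3 under the strict filter, 1 with at least 2 Cd4 UMIs, 4 without Cd8a, 17 without B cell UMIs, and 12 to 30 with a library left out. The difference in the share of CD4 T cells turned to 0.0218 points without Cd8a, 0.0168 with Cd79a barcodes left out, 0.108 without γ constant cells, and ran from -0.214 to 0.103 (0.0723 without control 1) with a library left out. States without overlap fell to 3 of 13 without γ constant cells, where the share with Cd8a was 5.99 points higher and that with Maf -6.91 points; the strict filter gave Cd8a 2.02 points. The causes were not tested.

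Only some of the genes given here were followed over the alternatives: 34 against CD8αβ cells, 27 against γδ cells, 9 in the diet fit and 7 in the interaction. None of these reversed. Of 484 values against CD8αβ cells, 459 kept their call and 25 lost it. Against γδ cells 3 of 388 lost it, and for the interaction 32 of 98. The CD4 sums rest on 73 to 123 cells a library and on 2 libraries a group.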
